A study of Mus musculus with 10 samples.

Results

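A set of 10 RNAs of the glycolytic pathway were followed in mouse sperm and testes. They were *Gapdhs*, *Gapdh*, *Pgk2*, *Ldhc*, *Ldha*, *Hk1*, *Aldoart1*, *Pgam2*, *Eno1* and *Tpi1*, 10 of the 16082 RefSeq protein-coding genes listed in at least 1 of the 10 samples. They were listed by name, with no threshold on their values, and each gene's value is the sum over its RefSeq protein-coding transcripts. The labels give C57BL/6 mice of 3 to 5 months, while the study's methods name C57BL/6J males and a younger age range. Control mice received saline, and cadmium (Cd) mice received a single intraperitoneal injection of CdCl2 at 3 mg per kg and were killed on day 35. The labels give 50 mice in each arm, and the study's methods give a different number of mice for the 4 control sperm pools, so the number behind each sample is uncertain. Mature sperm were pooled from vas deferens and cauda epididymis and somatic cells were lysed, whereas testes were sampled as pieces of whole tissue with all their cell types. RNA depleted of rRNA was sequenced for 4 control sperm pools (sperm-1 to sperm-4), 2 Cd sperm samples, 2 control testes and 2 Cd testes.

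Glycolysis turns glucose into pyruvate and yields ATP without oxygen. Mouse sperm depend on it for motility, and the flagellum holds forms of several enzymes that are made only, or mainly, in germ cells. *Gapdhs* encodes the sperm form of glyceraldehyde-3-phosphate dehydrogenase, *Pgk2* the germ-cell phosphoglycerate kinase, *Ldhc* the germ-cell lactate dehydrogenase subunit and *Aldoart1* an aldolase derived from a retrogene. *Gapdh*, *Ldha*, *Hk1*, *Eno1* and *Tpi1* are widely expressed, and *Pgam2* encodes the phosphoglycerate mutase of muscle that is also made in male germ cells. Mature sperm make almost no new RNA, so the RNAs found there are largely carried over from earlier stages.

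The counts behind the sperm values were few. Control sperm held 366455 to 1058017 expected counts, Cd sperm 1155491 and 1254477, and testes 2606086 to 2866856. A count of 3 was taken as the level that a value of 0 may hide, although lower counts were also listed. It equalled 2.84 to 8.19 CPM (expected counts scaled to the library's total) in control sperm, 2.39 and 2.60 in Cd sperm and 1.05 to 1.15 in testes. Protein-coding RefSeq transcripts took 9.14 to 13.6% of the counts of a sample. The protamine RNA *Prm2*, which marks spermatids and sperm, was listed in every sperm sample with 45 to 291 counts, but *Prm1* had only 0 to 10 and *Odf1*, which encodes an outer dense fibre protein, was at 0 in all 6 sperm samples. Sperm-1 was set aside by the study for its poor correlation with the other pools and was left out of the tests below, but its values are given throughout.

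The genes lie on several chromosomes of the GRCm38.p6 build. *Pgk2* is on chr17:40207018-40208609, and its counterpart *Pgk1* is X-linked (chrX:106187100-106203699). *Ldha* (chr7:46842274-46855627) and *Ldhc* (chr7:46861263-46878147) are neighbours with 5635 bases between them. *Gapdhs* (chr7:30729779-30744791) shares their chromosome, and *Gapdh* (chr6:125161852-125166467) and *Tpi1* (chr6:124810586-124814158) share another. *Hk1* is at chr10:62268855-62379920, *Pgam2* at chr11:5801637-5803796, *Eno1* at chr4:150236708-150248879 and *Aldoart1* at chr4:72850583-72852634.

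The 250 bases upstream of the outermost annotated start are shown for *Pgk2* and *Ldhc*, the germ-cell isozymes that were called lower in sperm than in testes, and for *Pgk1*, the counterpart of *Pgk2*. The sequences are those of RefSeq on GRCm38.p6, written 5′ to 3′ on the strand of the gene. Capitals mark the GC box (GGGCGG), the letters TGACG found in cAMP response elements, and the CCAAT box, on either strand.
Pgk2 (chr17:40208610-40208859, minus strand): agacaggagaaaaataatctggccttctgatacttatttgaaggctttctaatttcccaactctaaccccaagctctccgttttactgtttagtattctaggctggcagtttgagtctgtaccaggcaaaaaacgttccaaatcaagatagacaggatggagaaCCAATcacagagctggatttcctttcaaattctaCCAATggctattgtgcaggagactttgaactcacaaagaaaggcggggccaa
Ldhc (chr7:46861013-46861262, plus strand): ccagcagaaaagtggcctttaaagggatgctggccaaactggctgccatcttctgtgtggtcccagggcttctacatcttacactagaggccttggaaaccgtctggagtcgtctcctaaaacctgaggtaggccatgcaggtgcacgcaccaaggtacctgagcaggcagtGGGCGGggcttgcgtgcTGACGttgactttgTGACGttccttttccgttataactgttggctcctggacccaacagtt
Pgk1 (chrX:106186850-106187099, plus strand): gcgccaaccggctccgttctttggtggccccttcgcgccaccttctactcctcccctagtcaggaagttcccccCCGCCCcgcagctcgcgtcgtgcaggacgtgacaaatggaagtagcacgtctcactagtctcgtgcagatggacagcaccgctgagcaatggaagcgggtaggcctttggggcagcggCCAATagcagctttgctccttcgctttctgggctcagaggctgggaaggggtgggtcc
The *Pgk2* window held 2 CCAAT boxes and no match to the others. The *Ldhc* window held 1 GC box and 2 matches to the cAMP response element letters, and the *Pgk1* window 1 GC box and 1 CCAAT box. A TATA box, searched as TATAAA on either strand, was in none of the 3. The window of a second annotated start of *Ldhc* (chr7:46861237-46861486), not shown, had no match to any of these letters. Of 32851 RefSeq promoter windows of this length, 32.7% held the GC box letters, 17.8% the cAMP response element letters, 33.8% the CCAAT box and 12.4% the TATA box, so such matches are common. A match is a description of the letters and not a site. No match overlapped another in the windows shown.

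**Figure D1:**
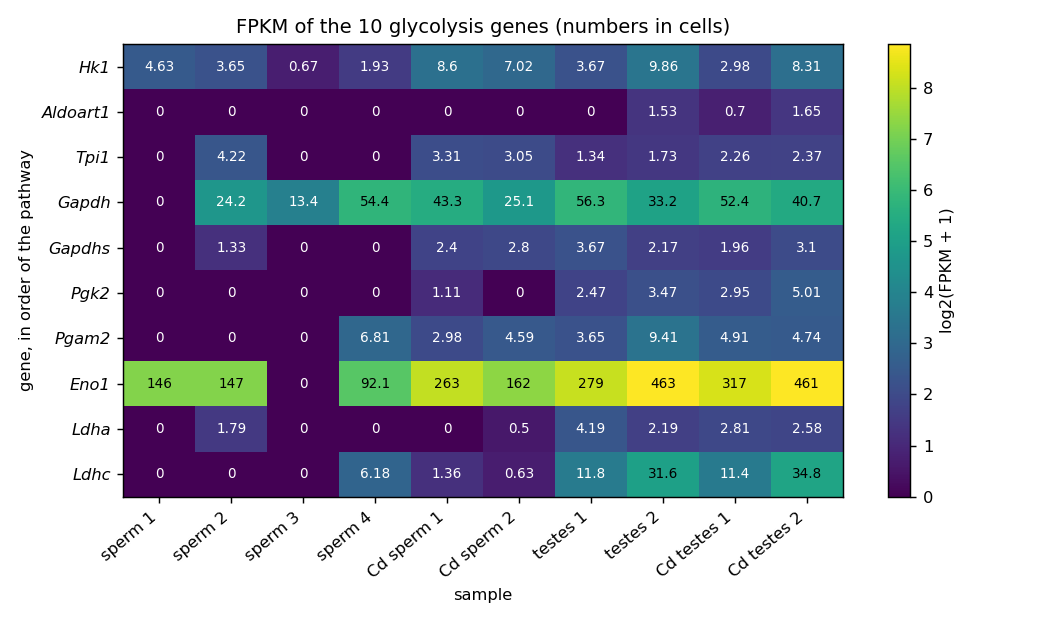
FPKM of the 10 genes in each sample, with genes in pathway order on the vertical axis and samples on the horizontal axis. Colours give log2(FPKM + 1) and the numbers are FPKM. Eno1 and Gapdh held the highest values in most samples, and zeros were concentrated in control sperm.

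*Hk1* encodes hexokinase 1, which phosphorylates glucose at the entry of the pathway, and it was the only gene of the 10 listed in every sample. Its level was 4.63, 3.65, 0.67 and 1.93 FPKM in sperm-1 to sperm-4 and 8.60 and 7.02 in Cd sperm. Control testes had 3.67 and 9.86 FPKM, and Cd testes 2.98 and 8.31. The sperm and testes ranges overlapped, and 1 testis sample of each treatment stood well above the other. Those values rested on 1 to 16 counts in control sperm, 36 and 41 in Cd sperm and 35 to 106 in testes. How the authors' tables split *Hk1* between its 2 transcripts changed between replicates: NM_010438 had 3.00 FPKM in one control testis and 0.01 in the other, while NM_001146100 had 0.67 and 9.85. Only the sum is used here.

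*Aldoart1* was at 0 in all 6 sperm samples. In testes it was at 0 in one control sample and at 1.53 FPKM in the other, and Cd testes had 0.70 and 1.65 FPKM. A count of 3 over sperm-2 to sperm-4 corresponds to 1.55 CPM, above the 1.46 CPM of the pooled control testes. With sperm-1 included, 3 counts corresponded to 1.27 CPM, which would make it at least 1.15-fold lower in sperm. A larger difference was not detectable at this depth, and the gene did not pass the filter for the test. *Tpi1*, which encodes triosephosphate isomerase, had 0, 4.22, 0 and 0 FPKM in sperm-1 to sperm-4 and 3.31 and 3.05 in Cd sperm. In testes it had 1.34 and 1.73 FPKM (control) and 2.26 and 2.37 (Cd). The 3 sperm samples with *Tpi1* all exceeded the 4 testes samples, on 6 or 7 counts each, and the other 3 sperm samples had none. In those other 3, a count of 3 equalled 5.90 to 8.19 CPM, above the 2.09 to 3.69 CPM of testes. Their zeros therefore do not show a level below that of testes.

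At the glyceraldehyde-3-phosphate step the somatic gene was the more abundant RNA wherever either was listed. *Gapdh* had 0, 24.3, 13.4 and 54.4 FPKM in sperm-1 to sperm-4 and 43.3 and 25.1 in Cd sperm. Control testes had 56.3 and 33.2, and Cd testes 52.4 and 40.7. *Gapdhs*, whose product replaces GAPDH on the sperm tail, was seen in only 1 control pool, sperm-2, at 1.33 FPKM (2 counts). It reached 2.40 and 2.80 FPKM in Cd sperm. Control testes had 3.67 and 2.17, and Cd testes 1.96 and 3.10. In sperm-1, sperm-3 and sperm-4, 3 counts equalled 5.90 to 8.19 CPM, above the 2.81 to 5.23 CPM of *Gapdhs* in testes. Their zeros therefore do not show a level of *Gapdhs* below that of testes or of Cd sperm (3.46 and 3.99 CPM). The 2 *Gapdh* transcripts differed in where they were listed. NM_008084 was listed in all 4 testes and 3 sperm samples, whereas NM_001289726 was listed in 4 sperm samples, at 11.6 FPKM in sperm-2, 13.4 in sperm-3, 54.4 in sperm-4 and 14.5 in the second Cd sample, and in none of the testes. In sperm-3 and sperm-4 it carried the whole *Gapdh* value. These are the authors' assignments of reads that the transcripts may share, and they were not tested.

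*Pgk2*, which takes over from X-linked *Pgk1* in germ cells that have entered meiosis, was at 0 in all 4 control sperm pools. Cd sperm had 1.11 FPKM (2 counts) in one sample and 0 in the other. All 4 testes held it, at 2.47 and 3.47 FPKM (control) and 2.95 and 5.01 (Cd). In sperm-1, sperm-3 and sperm-4, 3 counts equalled 5.90 to 8.19 CPM, against 3.84 to 7.75 CPM for *Pgk2* in testes. Zeros in those pools do not show a level of *Pgk2* below that of every testis. The values of sperm and testes did not overlap. *Pgk1* showed no such order: the only control pool with any was sperm-2 at 2.11 FPKM, and it had 4.34 and 2.22 in Cd sperm. Control testes had 1.37 and 0.65, and Cd testes 0.99 and 0.21.

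*Pgam2* had 6.81 FPKM (3 counts) in sperm-4 and 0 in the other 3 control pools. Its level was 2.98 and 4.59 FPKM in Cd sperm. Control testes had 3.65 and 9.41, and Cd testes 4.91 and 4.74, so that the tissues overlapped.

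Both lactate dehydrogenase genes, whose products convert pyruvate to lactate and regenerate NAD+, had lower values in every sperm sample than in any testis. *Ldhc* had 6.18 FPKM (4 counts) in sperm-4 and 0 in the other 3 control pools, and 1.36 and 0.63 FPKM in Cd sperm. In testes it had 11.8 and 31.6 FPKM (control) and 11.4 and 34.8 (Cd), with 1 sample of each treatment far above the other. *Ldha* reached 1.79 FPKM in sperm-2 and was at 0 in the remaining control pools, and it had 0 and 0.50 in Cd sperm. Control testes had 4.19 and 2.19, and Cd testes 2.81 and 2.58. The highest sperm value of *Ldha* therefore lay just under the lowest testes value. In sperm-1, sperm-3 and sperm-4, 3 counts equalled 5.90 to 8.19 CPM, against 3.45 to 6.63 CPM for *Ldha* in testes. Zeros in those pools do not show a level of *Ldha* below that of every testis.

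**Figure D2:**
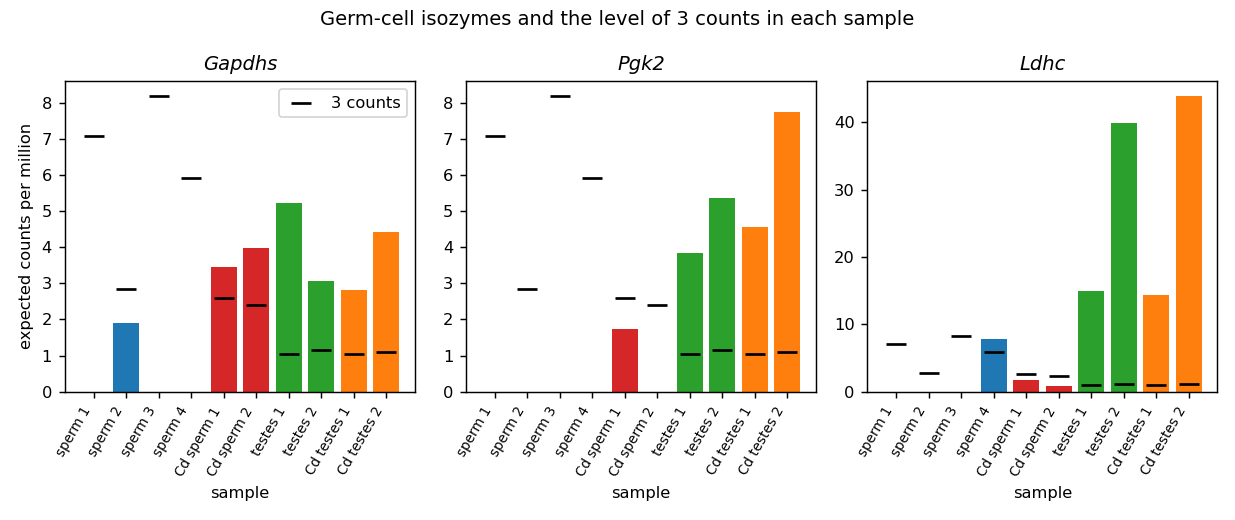
Expected counts, in CPM, of Gapdhs, Pgk2 and Ldhc in each sample (bars, blue for control sperm, red for Cd sperm, green for control testes and orange for Cd testes), with the level that 3 counts would give in that sample (black marks). Testes lie above their mark for all 3 genes, while control sperm reach the mark only for Ldhc in sperm-4.

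*Eno1* encodes alpha-enolase, which makes phosphoenolpyruvate, and it was the most abundant of the 10 RNAs in 9 of the 10 samples. It had 146, 147, 0 and 92.1 FPKM in sperm-1 to sperm-4 and 263 and 162 in Cd sperm. Control testes had 279 and 463 FPKM and Cd testes 317 and 461, above every sperm sample. The 0 in sperm-3 has to be read with *Eno1b*, a retrotransposed copy of *Eno1* that can share its reads. *Eno1b* had 81.3, 76.0, 244 and 133 FPKM in sperm-1 to sperm-4 and 100 and 52.4 in Cd sperm, but 0 in all 4 testes. The expected counts of the 2 genes traded places: *Eno1b* took 34.0% of their joint count in sperm-1 (95% Wilson interval 26.9 to 41.3%), 32.4% in sperm-2 (28.0 to 37.1%), 100% in sperm-3 (97.4 to 100%) and 57.3% in sperm-4 (50.0 to 63.9%), and 26.1% (23.0 to 29.4%) and 23.1% (19.4 to 27.1%) in Cd sperm. The joint count was far steadier, at 376 to 390 CPM in the 4 control pools (382 ± 6.14, SD, n = 4). It was 621 and 367 CPM in Cd sperm, 484 and 801 CPM in testes of control mice, and 550 and 799 CPM in those of Cd mice. On the FPKM scale, the sum overlapped between sperm and testes. The level of *Eno1* alone is therefore uncertain, since reads that fit both genes cannot be assigned from these tables. Intervals and the level of 3 counts cover counting error only.

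**Figure D3:**
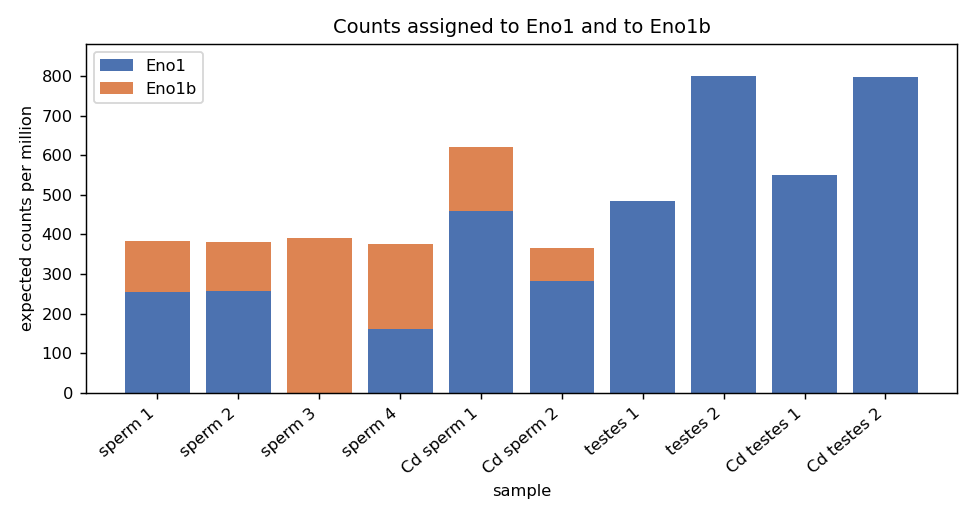
Expected counts, in CPM, assigned to Eno1 (blue) and Eno1b (orange) in each sample, stacked so that the bar height is their sum. The sum is between 376 and 390 in the 4 control sperm pools although the division ranges from 32.4 to 100% on Eno1b, and the testes bars hold Eno1 only.

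By mean FPKM, the order in control testes was *Eno1*, *Gapdh*, *Ldhc*, *Hk1*, *Pgam2*, *Ldha*, *Pgk2*, *Gapdhs*, *Tpi1* and *Aldoart1*. The first 4 were separated from each other by non-overlapping values. *Hk1* to *Pgk2* each overlapped with the next gene, *Gapdhs* stood above *Tpi1*, and *Tpi1* overlapped with *Aldoart1*. In control sperm the order was *Eno1* (96.3 ± 69.2 FPKM, SD, n = 4), *Gapdh* (23.0 ± 23.2), *Hk1* (2.72 ± 1.76), *Pgam2* (1.70 ± 3.41), *Ldhc* (1.55 ± 3.09), *Tpi1* (1.06 ± 2.11), *Ldha* (0.45 ± 0.90), *Gapdhs* (0.33 ± 0.67), and *Pgk2* and *Aldoart1* at 0. Every neighbour in that order overlapped with the next. The number of the 10 genes listed was 2, 6, 2 and 5 in sperm-1 to sperm-4, 8 in each Cd sperm sample and 9 or 10 in testes.

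Sperm was compared with testes in controls to ask which RNAs of the pathway differ between the mature cell and the tissue that makes it. By the study's methods, the testes came from the mice that gave the sperm pools. No label ties a pool to a testes sample, so the test was unpaired. Over all genes, the quasi-likelihood test of edgeR called 17.7% of 24432 genes lower and 4.17% higher in sperm (a gene was called when it moved by over 2-fold and its p, adjusted by Benjamini-Hochberg, was under 0.05). The median log2 fold change of all genes was -1.24. Against that background, 3 of the 9 members tested were called, and all 3 were lower. Among RefSeq genes alone, 20.2% were called lower and 4.38% higher. The median of the 9 members was -1.92. Of these, *Pgk2*, *Ldhc*, *Ldha*, *Gapdhs*, *Pgam2* and *Tpi1* passed the filter only with the testes.

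*Eno1* was lower by a log2 fold change of -2.32 (SE 0.67, edgeR adjusted p = 0.0148). With *Eno1* and *Eno1b* summed, the change was -1.04 and no longer called (adjusted p = 0.144). It was also not called without sperm-4 (adjusted p = 0.174) or with limma or DESeq2 (adjusted p = 0.289 and 0.283), and over all alternatives the adjusted p ranged from 2.56e-06 to 0.289. *Ldhc* was lower by -3.79 (SE 1.45, edgeR adjusted p = 0.0497). Among the tested pools it reached 1 FPKM in sperm-4 alone, so it passed the filter only with the testes, where it is high. The call was lost in 7 of 12 alternatives: without sperm-2 (adjusted p = 0.0918), without either testes sample (0.290 and 0.970), with DESeq2 (0.0828), with limma (0.0952), with no filter on low values (0.154) and with a replicate block and sperm-1 added (0.0816). The range over alternatives was 0.0211 to 0.970. *Pgk2* was called lower (edgeR adjusted p = 0.0472), but it passed the filter only through the testes, where it is high, and with no filter it was not called (adjusted p = 0.144). Since it was at 0 in control sperm, the fitted fold is no bound: with 3 counts over sperm-2 to sperm-4 it was at least 2.94-fold lower than in testes, and at least 3.59-fold with sperm-1 included. Its call was lost without sperm-2, sperm-3 or sperm-4 (adjusted p = 0.0654, 0.0871 and 0.174) and with a replicate block and sperm-1 added (0.760), and DESeq2 gave no adjusted p. The range over alternatives was 0.00490 to 0.760.

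The other 6 tested members were not called. Their log2 fold changes with SE were -2.15 ± 1.47 for *Gapdhs*, -0.83 ± 0.88 for *Gapdh*, -1.92 ± 1.50 for *Ldha*, -1.83 ± 1.19 for *Hk1*, -1.91 ± 1.61 for *Pgam2* and 0.15 ± 1.32 for *Tpi1* (edgeR adjusted p from 0.269 to 0.948). Single pools decided several of these values: without sperm-2 the fitted changes were -5.80 for *Gapdhs*, -6.07 for *Ldha* and -5.05 for *Tpi1*, and without sperm-4 that of *Pgam2* was -6.38, each with the remaining pools at 0, so that these are no bounds. The sign for *Tpi1* also turned with DESeq2. With these SE, changes of more than 2-fold in either direction would have gone uncalled. Testes hold meiotic and post-meiotic germ cells beside somatic cells, and fewer cells of a type cannot be told apart from less RNA per cell. Summed spermatocyte markers were 0 to 10.4 CPM in sperm, with 4 of the 6 markers (*Sycp1*, *Piwil1*, *Spo11*, *Hormad1*) at 0 in every sperm sample, and 19.3 to 29.6 CPM in testes. *Prm1* was also lower in every sperm sample (0 to 40.1 FPKM against 118 to 136), but *Prm2* was not (184 to 438 against 147 to 281). The part of cell composition in these differences was not tested.

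**Figure D4:**
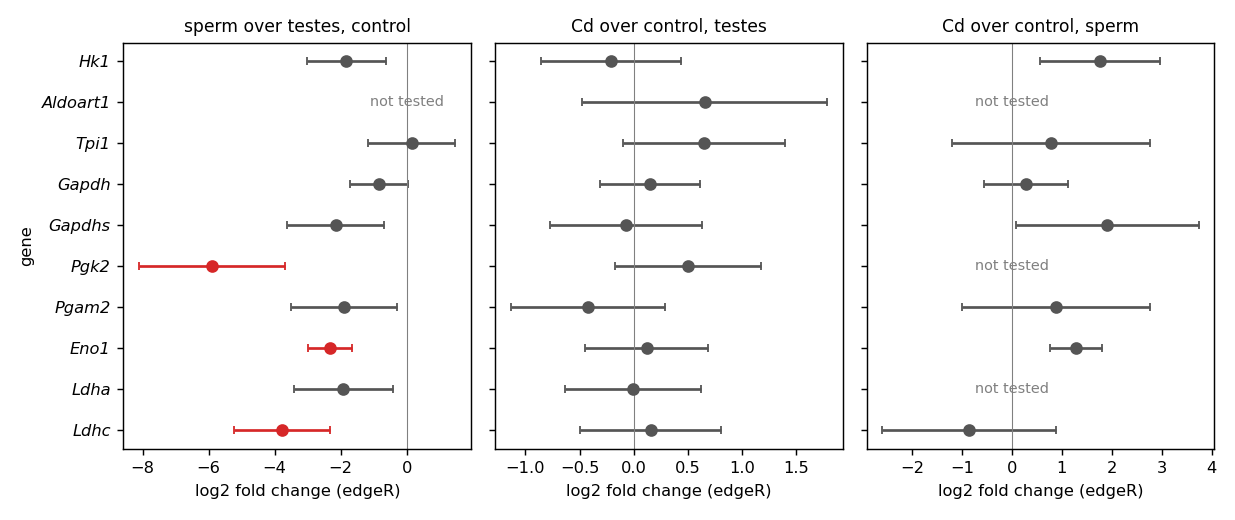
Log2 fold change of each gene from edgeR (point) with its standard error (bar), for sperm over testes in controls and for Cd over control in testes and in sperm. Red points were called, and the horizontal scale differs between panels. Red points are Pgk2, Eno1 and Ldhc in the first panel, and none of the other panels holds one.

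Without a model, 4 of the 10 genes (*Pgk2*, *Ldhc*, *Ldha* and *Eno1*) were lower in all 6 sperm samples than in all 4 testes, and 6 overlapped. For *Pgk2* and *Ldha*, sperm-1, sperm-3 and sperm-4 were too shallow for their zeros to show this. Of 6685 RefSeq genes that passed the filter over the 10 samples, 27.6% were lower in every sperm sample and 4.53% higher. All 10 members passed that filter.

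The wider pathway was described with a list of 39 genes, from glucose transporters to lactate transporters. In sperm against testes 23 were tested, 1 was higher, 6 were lower and 16 were not called, with a median log2 fold change of -1.92 beside -1.22 for RefSeq genes, of which 20.2% were called lower. The remaining 16 did not pass the filter. The 6 genes called lower became 1 with DESeq2, with no filter, with a replicate block and sperm-1 added, without sperm-4 and without either testes sample, and 2 without sperm-2. The gene that was higher was *Eno1b*, which was at least 361-fold higher in sperm against 3 counts over both control testes, with the doubt about shared reads given above. Beyond the 3 members, the genes that were lower were *Pfkl* (the liver phosphofructokinase subunit), *Eno4* (an enolase needed in the sperm tail) and *Slc16a7* (the monocarboxylate transporter MCT2), each at an edgeR adjusted p of 0.0472. *Pfkl*, *Slc16a7* and *Eno4* passed the filter only through the testes, where they are high. *Pfkl* was at 0 in control sperm and at 1.54 and 1.57 FPKM in control testes, which makes it at least 3.70-fold lower. *Slc16a7* was at 0 in control sperm and at 1.02 and 1.29 FPKM in control testes, at least 1.77-fold lower. *Eno4* was at 0 in every control pool but sperm-2 (0.74 FPKM) and at 8.27 and 7.90 FPKM in control testes, a log2 fold change of -4.50 (SE 1.65). Among genes not called, *Pkm*, the pyruvate kinase, had 0 to 26.3 FPKM in control sperm and 7.96 and 8.51 in control testes (0.69, SE 1.05, adjusted p = 0.670). *Aldoart2*, another aldolase retrogene, had a log2 fold change of -3.53 (SE 1.74, adjusted p = 0.140), and *Aldoa* -1.63 (SE 1.43, adjusted p = 0.430). *Pgk1* and *Pgam1* had -0.07 and -0.94, with SE of 1.26 and 1.18 (adjusted p = 0.976 and 0.599).

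Ratios of a germ-cell isozyme to its counterpart were taken within a sample, where the scaling to library size is shared, but the added 1 and zeros in shallow samples still move them. They were expressed as log2 of (FPKM + 1) and compared without a test, for 6 pairs. The *Pgk2* to *Pgk1* ratio was -1.69 to 0 in the 6 sperm samples and 0.55 to 2.31 in the 4 testes, the only one of the 6 that did not overlap. In 3 of those sperm samples both genes were at 0, which sets the ratio to 0, and in the other 3 *Pgk1* exceeded *Pgk2*, whereas *Pgk2* exceeded *Pgk1* in all 4 testes. The *Gapdhs* to *Gapdh* ratio lay between -5.79 and 0 in sperm and between -4.17 and -3.35 in testes. The *Ldhc* to *Ldha* ratio was positive in all testes (1.31 to 3.35) and ranged from -1.48 to 2.84 in sperm. *Pgam2* to *Pgam1* spanned -1.04 to 2.97 in sperm and 0.98 to 2.67 in testes, *Aldoart1* to *Aldoa* -1.50 to 0 and -1.65 to -0.25, and *Aldoart2* to *Aldoa* -0.84 to 0.35 and -0.34 to 1.45.

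**Figure D5:**
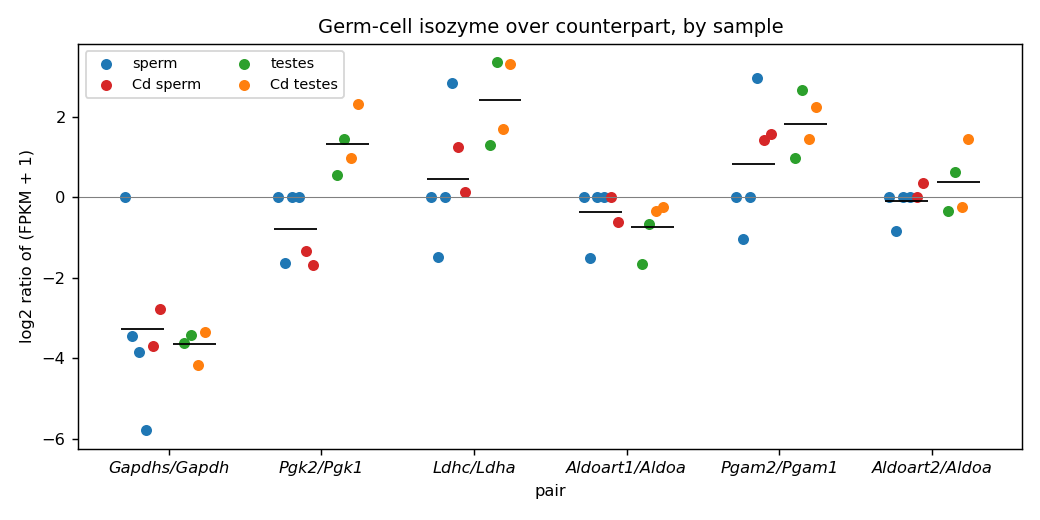
Log2 ratio of germ-cell isozyme to counterpart, computed on FPKM + 1, with 1 point per sample (left 6 sperm, right 4 testes in each pair) and the mean of the sperm and of the testes samples as lines. Points at 0 in sperm are samples in which neither gene of the pair was listed. Only the Pgk2/Pgk1 points of sperm and testes do not overlap.

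Cadmium was compared with saline in testes and in sperm to ask whether exposure shifts these RNAs. In testes, edgeR called 0.0225% of 26724 genes, and 0 of the 10 members (adjusted p = 0.999994 for each). At an unadjusted p under 0.05 there were 226 genes and 0 members, and DESeq2 and limma also called 0 members. Log2 fold changes of the members ran from -0.42 ± 0.71 (SE) for *Pgam2* to 0.66 ± 1.13 for *Aldoart1*. *Gapdhs* had -0.07 ± 0.70, *Ldhc* 0.16 ± 0.65 and *Pgk2* 0.50 ± 0.67. *Tpi1* was the only member whose Cd testes (2.26 and 2.37 FPKM) both exceeded the control testes (1.34 and 1.73), where 8.96% of 5113 RefSeq genes were higher and 11.1% lower without overlap. The list of 39 genes had 22 genes tested and none called, with a median of 0.03 beside 0.02 for all genes. In simulated data with the dispersion of this comparison, 18% of 4-fold and 96% of 16-fold changes were recovered. Most 4-fold changes would therefore have gone uncalled.

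In sperm, the median log2 fold change of all genes was 0.43 (0.31 with DESeq2) and that of the members tested 0.89. The edgeR test called 0.0824% of 20640 genes and 0 of the 7 members tested, *Pgk2*, *Ldha* and *Aldoart1* having failed the filter. *Gapdhs*, *Tpi1*, *Pgam2* and *Ldhc* passed it only with the Cd samples, and the median of 0.89 was the value of *Pgam2*. *Eno1* was the only member at an unadjusted p under 0.05, a level reached by 1354 genes. Its log2 fold change was 1.28 (SE 0.52, edgeR adjusted p = 0.547), beside -0.84 (SE 0.56, adjusted p = 0.999931) for *Eno1b*, and with the 2 genes summed it was 0.41. *Hk1* had 1.76 (SE 1.20) and *Gapdhs* 1.91 (SE 1.83), both at an adjusted p of 0.999931. Leaving out 1 library moved these values to between 0.64 (without sperm-3) and 2.24 (without sperm-2) for *Eno1*, 1.25 (without sperm-3) and 2.67 (without sperm-2) for *Hk1*, and 1.35 (without sperm-4) and 4.73 (without sperm-2, with the other control pools at 0) for *Gapdhs*. Over the same removals *Tpi1* ranged from 0.17 to 5.13 and *Pgam2* from 0.19 to 4.70. *Gapdhs*, *Hk1* and *Eno1* were higher in both Cd samples than in all 4 control pools, 3 of the 7 members that passed the filter with sperm-1 added. Of the 4176 RefSeq genes that passed it, 16.1% were higher and 0.79% lower without overlap. *Gapdhs* passed it only with the Cd samples, where it is high. In sperm-1, sperm-3 and sperm-4, 3 counts equalled 5.90 to 8.19 CPM, against 3.46 and 3.99 CPM for *Gapdhs* in Cd sperm. Zeros in those pools do not show a level of *Gapdhs* below that of Cd sperm. The enolase sum overlapped. Both Cd sperm samples were deeper than every control pool. Summed leukocyte markers were also higher in Cd sperm (6.92 and 10.4 CPM, 3 of 6 markers listed in each) than in control sperm (0 to 3.78 CPM), with *Cd74* at 0 in all 6 sperm samples. The sums of 0 were in sperm-1, sperm-3 and sperm-4, where 3 counts equalled 5.90 to 8.19 CPM. Such zeros bound the level only loosely. The epididymal epithelium markers, at 4.33 and 6.38 CPM, lay within the control range of 0 to 9.84, although *Cdh1* was seen only in Cd sperm (1 and 3 counts). The part of depth and of other cells in these values was not tested. DESeq2 and limma also called 0 members. In simulated data with the dispersion of this comparison, 7% of 4-fold and 54% of 16-fold changes were recovered. The absence of calls therefore does not show that these RNAs were unchanged.

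The cadmium effect in sperm was set against that in testes in 1 model of 9 samples. It differed for 0.0396% of 32814 genes and for 0 of the 10 members (edgeR adjusted p = 0.999968 for each), and DESeq2 and limma called 0 members as well. At an unadjusted p under 0.05 there were 1236 genes and 0 members.

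The RefSeq genes whose log2(FPKM + 1) most resembled 3 of the germ-cell isozymes over the 10 samples were ranked by Pearson correlation among about 1278 genes with a mean of at least 5 FPKM. For *Ldhc* they were *Dmrtb1*, a transcription factor of the entry into meiosis (r = 0.997), *Uqcrc2*, a subunit of respiratory complex III (r = 0.996), and *Rab5a*, an endosomal GTPase (r = 0.983). For *Pgk2* they were *Dppa5a* (r = 0.978), *Olfr126*, an olfactory receptor gene (r = 0.977), and *Oaz1*, the ornithine decarboxylase antizyme (r = 0.976). For *Gapdhs* they were *Tuba1a*, an alpha-tubulin (r = 0.967), *Pebp1* (r = 0.947) and *Rpl36*, a ribosomal protein gene (r = 0.938). These points share libraries and depths, and values at 0 in the shallow sperm pools raise such correlations, so the ranking is a description.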

How the data were processed

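RNA was depleted of rRNA with RNase H and sequenced with strand information on an Illumina HiSeq. The study's methods name SOAPaligner/SOAP2, and the submitters' processing notes name HISAT and mm10; the counting tool is not given in the sources used here. For each sample the authors deposited 1 table with an expected count (an estimate, not normalized) and an FPKM (scaled by the authors to transcript length and library size) for each transcript above 0. Transcripts not listed were taken as 0.

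Expected counts and FPKM were summed by gene over NM_ transcripts, and other transcripts kept their own gene identifiers, giving 69572 genes in 1 table. Genes that reached 1 FPKM in 2 or more samples of a comparison were kept, and their rounded counts were tested with edgeR 4.0.16 (quasi-likelihood, TMM; R 4.3.3), without sperm-1. Calls needed a Benjamini-Hochberg adjusted p under 0.05 over all genes and more than 2-fold change. The SE is the log2 fold change divided by the square root of F, and is not a spread between samples. DESeq2 1.42.0, limma 3.58.1 on log2(FPKM + 1) and other settings were alternatives. The pipeline was tested on simulated data with 200 changed genes among those of each comparison: with the dispersion estimated from sperm against testes, 2% of 4-fold and 38% of 16-fold changes were recovered. The changed genes were drawn only from those with more counts on average, so recovery for genes with few counts was not tested.

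The members and lists were chosen with earlier results of these data known. Named are the 10 members, their counterparts, list genes called in a comparison (and *Pkm*, named after its values were seen), and the 3 genes most like *Gapdhs*, *Pgk2* and *Ldhc*. Within each group, no 2 samples agreed within sampling noise. The labels do not say that Cd sperm or Cd testes samples came from separate animals, so p-values measure the spread between these samples, which may be technical. Promoters and positions are RefSeq's on GRCm38.p6. *Aldoart1* had no promoter entry. Python 3.11.15, numpy 2.4.6, pandas 2.3.3 and matplotlib 3.10.9 were used.

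Markers of other cells, fixed as lists, were summed per sample in CPM over sperm and then testes: spermatid and sperm 127 to 268 and 233 to 298, spermatogonium 1.89 to 16.5 and 86.2 to 121, Sertoli 0 to 4.77 and 1.10 to 4.88, Leydig 0 to 109 and 44.3 to 65.2, epididymis epithelium 0 to 9.84 and 0.349 to 17.7, leukocyte 0 to 10.4 and 2.30 to 5.17, erythroid 0 to 4.33 and 0.369 to 1.74, endothelium 0 to 0.935 and 0.0701 to 0.619, muscle and fibroblast 0 to 1.97 and 2.58 to 4.88. The highest Leydig sum in sperm was *Star* alone, with 40 counts (109 CPM) in sperm-3. *Cyp11a1* and *Insl3* were at 0 in every sperm sample. Among the spermatogonium markers, *Gfra1* alone was at 1.73 to 16.5 CPM in sperm and 84.4 to 118 CPM in testes. *Kit*, *Stra8* and *Dmrt1* were at 0 in every sperm sample. In testes *Kit* had 1 count, in 1 Cd sample, and was otherwise at 0, so its zeros in sperm tell little.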

Additional observations from a re-analysis of the deposited data

Results flagged for a closer look

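Among the 4 control sperm pools, 5 of 9 groups of values tested held a highest sample whose distance from the rest exceeded Dixon's critical value. In each case the other 3 pools were at 0, so that any value above 0 exceeds it, and the usual rate of about 1 in 20 by chance does not apply to such sparse counts. *Gapdhs* (1.33 FPKM), *Ldha* (1.79 FPKM) and *Tpi1* (4.22 FPKM) stood apart in sperm-2, which has the most counts of the 4 pools. *Ldhc* (6.18 FPKM) and *Pgam2* (6.81 FPKM) stood apart in sperm-4. These values rest on 2 to 7 counts.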

How the results depend on the processing

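For sperm against testes, 5353 genes (1020 higher, 4333 lower) and 3 members were called. DESeq2 called 3123 genes (1082 higher, 2041 lower) and 0 members, limma 1 member, no filter on low values 1344 genes and 1 member, RefSeq genes alone 1214 genes, and a replicate block with sperm-1 added 1566 genes and 1 member. Leaving out 1 library gave 880 to 4338 genes and 1 to 2 members: 2136 genes without sperm-2, 4338 without sperm-3 (1748 higher, 2590 lower), 968 without sperm-4, and 1098 and 880 without either control testis, where *Pgk2* failed the filter. The median log2 fold change of all genes, -1.24, was -2.57 without sperm-2, -0.91 without sperm-3, -0.76 and -1.06 without either control testis, -1.72 without a filter, -1.48 with sperm-1 added and -1.74 with the replicate block. Leaving out 1 library gave log2 fold changes of -3.25 to -1.56 for *Eno1* and -8.67 to -2.88 for *Ldhc*. For *Pgk2* the 3 sperm removals, which leave it at 0 in sperm, gave -6.06 to -6.00 and say nothing of its stability. Over all alternatives, the changes were -3.91 to -1.04 for *Eno1* and -6.06 to -1.98 for *Pgk2*. *Tpi1* turned from 0.15 to -0.027 (DESeq2), -0.54 (limma), -0.46 (sperm-1 added) and -0.31 (replicate block), and leaving out 1 library gave -5.05 to 0.89.

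For Cd testes, against 6 genes, limma and RefSeq genes alone gave 0, no filter 88, the replicate block 89 and leaving out 1 library 4 to 29 (22 and 29 without either control testis, 12 and 4 without either Cd testis). For Cd sperm, against 17, DESeq2 gave 10, limma 0, RefSeq genes alone 3 and leaving out 1 library 7 to 42 (7 without sperm-2, 42 without sperm-3, 9 without sperm-4). For the difference of the effects, against 13, DESeq2, limma and RefSeq genes alone gave 0. No member was called in any cadmium setting. Uncalled signs turned for *Ldha* in Cd testes (0.016 without a filter), *Ldhc* in Cd sperm (0.024 with limma, 3.07 with the replicate block) and *Tpi1* in the difference (0.081 with DESeq2, 0.88 with limma, 0.34 without a filter, 0.062 with RefSeq genes alone and 0.43 with sperm-1 added, against -0.02). Leaving out 1 library in Cd testes gave -1.39 to 0.98 for *Hk1*, -0.48 to 1.26 for *Aldoart1*, -0.011 to 0.35 for *Gapdh*, -0.64 to 0.31 for *Gapdhs*, -0.15 to 0.98 for *Pgk2*, -1.08 to 0.67 for *Pgam2*, -0.41 to 0.80 for *Eno1*, -0.23 to 0.30 for *Ldha* and -1.14 to 1.32 for *Ldhc*, and in Cd sperm -0.17 to 0.76 for *Gapdh*. At a pseudocount of 0.1 FPKM the sperm minus testes log2 ratio of *Gapdhs* to *Gapdh* turned from 0.38 to -0.55, and that of *Pgk2* to *Pgk1* moved from -2.10 to -3.96. Where no value is given, the cause was not tested.

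Samples with the same number deviated together in testes (r = 0.522 over 26724 genes, with 2 pairs), but the labels do not tie the numbers to shared animals, so they were not treated as pairs. Depth limits the sperm values: 3 counts were 2.84 to 8.19 CPM in a control pool.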
